A study of Saccharomyces cerevisiae with 3 samples.

Results

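Genes of Saccharomyces cerevisiae whose systematic name ends in a letter suffix, such as YJL077W-B, were examined on 3 Affymetrix arrays. Members were chosen by name alone: the gene symbol in the platform annotation had to be Y, a chromosome letter, L or R for the arm, 3 digits, W or C for the strand, a hyphen and 1 letter. No measured value entered that rule, but the group was proposed after some of its genes had been seen to differ between these arrays, so its counts are given as a description and without a test. In all, 148 of the 5498 S. cerevisiae probe sets met the rule, for 142 of 5449 genes. The first array was given yeast RNA only (100% baseline, called the baseline array), the next 99% baseline and 1% spike (the 1% array) and the last 90% baseline and 10% spike (the 10% array). That yeast RNA came from MAT-alpha cells of the W303 background carrying cdc15-2, which makes a kinase of mitotic exit temperature-sensitive, in a fermentor with minimal medium at 23 °C, 340 minutes after the block was released. All 3 arrays carried this background, and what the spike was is not given in the sources used here.

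A suffix marks a gene that was added between neighbours already numbered when the yeast genome was first annotated. Many such genes are short open reading frames, which early annotation passed over because short frames occur often by chance, and which were added later from conservation, expression or protein evidence. Some encode small proteins of known function and have since received a standard gene name. Others remain uncharacterized, and retrotransposon reading frames were also given suffixed names. None of the 148 member probe sets had a standard gene name in the gene table used here, so no function is stated for the single members, and their neighbours on the chromosome are named instead.

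Every group was 1 array, so no difference had a replicate check, no p-value was computed, and precision is limited by the small number of arrays. Values are deposited log2 expression values, and a difference of 1 is a 2-fold change. Differences were counted at 2 marks, 2-fold and 0.3 on the log2 scale (1.23-fold). The mating-type genes of MAT-alpha cells gave 13.8 to 14.6 in the baseline array (MF(ALPHA)1, MF(ALPHA)2, STE3 and SAG1), and those of the opposite mating type 9.60 to 10.99 (MFA1, MFA2, STE2, BAR1 and AGA2).

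The word short fits most members, though not all. Their coding lengths, taken as the annotated span with any intron, ran from 51 to 5410 bases with a median of 175.5. Of the 148 probe sets, 127 were for genes under 300 bases. The gene with the shortest frame was YJR151W-A, at 51 bases or 17 codons with the stop. The next shortest were YAR035C-A at 81 bases, YJL136W-A and YHL015W-A at 84 bases and YFR012W-A, YGL007C-A and YGR174W-A at 87 bases. Of the 21 probe sets at 300 bases or more, 11 were for Gag or Gag-Pol reading frames of Ty retrotransposons, mobile elements that copy themselves through RNA. The longest were YHL009W-B of Ty4 at 5410 bases, then YBL100W-B and YDR261W-B of Ty2 at 5314 bases each, YDR316W-B of Ty1 at 5269 bases and YDR261C-D of Ty1 at 4816 bases. The 10 others of 300 bases or more were 300 to 930 bases long.

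Suffixed genes without a standard name were mostly dim. A probe set's value depends on how well its probes hybridize as well as on RNA, so the values of different genes are not an order of RNA amount. The median over the 148 member probe sets was 7.30 in each of the 3 arrays, and the quartiles in the baseline array were 5.45 and 9.06. The 5350 other S. cerevisiae probe sets had a baseline median of 10.84 with quartiles of 9.87 and 11.998. In the baseline array, 86 members (58.1%) lay below the median of all 10762 non-control probe sets, 7.75, against 251 of the other S. cerevisiae probe sets (4.69%). As a further mark of dimness, 53 members (35.8%) lay below 6.45, the 95th percentile of 1747 probe sets with lower-case gene symbols that are not in the S. cerevisiae table. The same held for 120 of the other S. cerevisiae probe sets (2.24%).

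Members were also dimmer than other genes of like coding length, up to 300 bases. Among genes of at least 100 and under 200 bases, the baseline median was 6.77 for 70 member probe sets and 12.92 for 29 others. From 200 bases to under 300 it was 7.83 for 40 members and 11.67 for 85 others. In both ranges the upper quartile of the members, 8.13 and 9.48, lay below the lower quartile of the others, 11.63 and 10.28. Under 100 bases there were 17 members with a median of 6.91 and only 2 other probe sets, RPL41A at 8.11 and YOR302W at 11.84. At 300 bases or more the medians were close, 10.96 for 21 members and 10.83 for 5234 others. The 10 long members that are not of Ty elements had a median of 9.80, and the 11 of Ty elements 11.10.

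**Figure D1:**
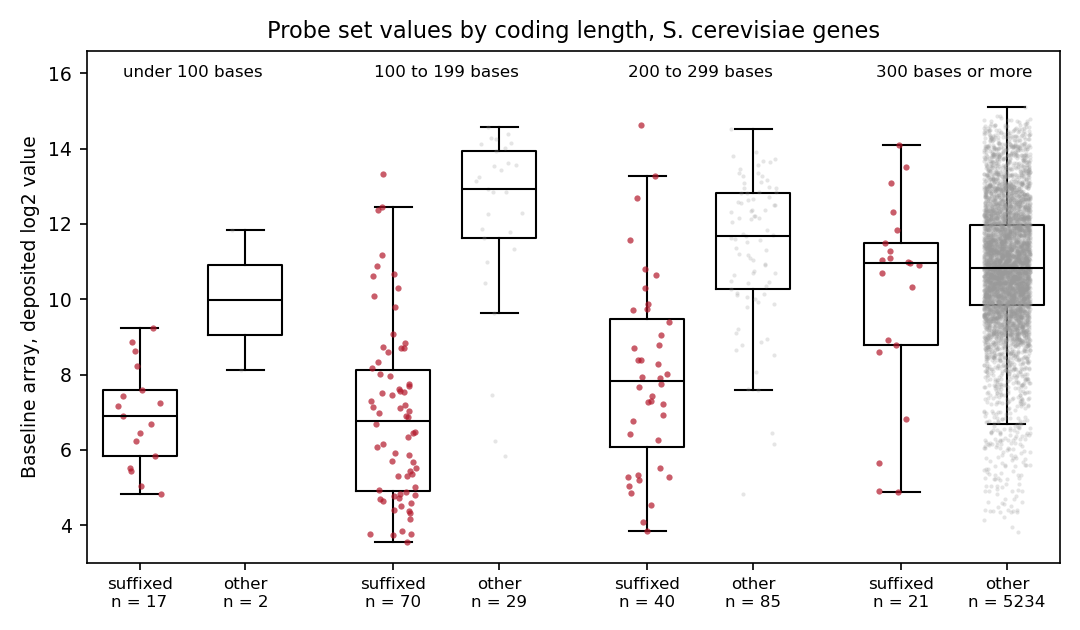
Deposited log2 value in the baseline array (vertical axis) by coding length class, with suffixed members (red) left of other S. cerevisiae probe sets (grey); each point is a probe set, boxes give the median and quartiles, and whiskers reach the last point within 1.5 times the box height. Under 300 bases the members lie lower than the others, with medians of 6.77 against 12.92 from 100 to under 200 bases, and at 300 bases or more the medians are close (10.96 and 10.83).

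The closest comparison is with genes whose systematic name also carries a suffix but which have a standard name, such as PMP1, a small proteolipid of the plasma membrane proton pump. They had 110 probe sets for 107 genes and a baseline median of 11.63. Restricted to genes under 300 bases, the median was 7.13 for 127 members and 11.65 for 64 probe sets of suffixed genes with a standard name. The quartiles did not overlap, at 5.32 and 8.61 for the members and 10.40 and 12.84 for the named genes. Within that range of coding length, suffixed genes without a standard name were thus dimmer than those with one.

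A few members were bright. YDR524C-B, of 201 bases, had the highest value, 14.63 in the baseline and the 1% array and 14.68 in the 10% array. YER138W-A, of 105 bases, stood at 13.33, 13.27 and 13.57 in the baseline, 1% and 10% arrays, from a probe set marked as matching several transcripts. YCR024C-B, of 267 bases, stood at 13.28, 13.29 and 13.46, and its right-hand neighbour on the same strand is PMP1, which stood at 13.13, 13.13 and 13.26. In all 3 of these bright short genes the 10% array held the highest value. At the dim end were both probe sets of YOL166W-A at 3.56 and 3.83 in the baseline array, 1 of the 2 of YLR157W-E at 3.73, YBR221W-A at 3.75 and YER175W-A at 3.78. YER175W-A gave the same value in all 3 arrays.

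Several probe sets for the same gene showed how far a value depends on its probes. The 5 genes with more than 1 probe set were YGR174W-A, YLL066W-B, YLR157W-E, YOL166W-A and YOR072W-B. For YLR157W-E, a probe set marked as matching several transcripts gave 10.09 in the baseline array and the other gave 3.73. For YOR072W-B the corresponding values were 8.83 and 4.50. In the gene table, the 162 bases of YOR072W-B share 83 with SUF11, a transfer RNA gene. The 10% over baseline differences of these pairs were small, 0.048 and 0.089 for YLR157W-E and -0.024 and 0.008 for YOR072W-B. Of the member probe sets, 19 (12.8%) were marked as matching several transcripts, against 2.04% of the other S. cerevisiae probe sets, so some member values may hold RNA of more than 1 locus.

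Between the 1% array and the baseline array the members differed less than at 10%, but spread more than other genes. The median difference was 0, with 38 member probe sets lower, 68 (45.9%) equal and 42 higher, whereas 63.3% of the other S. cerevisiae probe sets were equal. A difference within 0.1 was found for 126 of 148 members (85.1%) and for 98.4% of the others. At 2-fold, 0 members were lower and 0 higher, against backgrounds of 0% and 0% of the S. cerevisiae probe sets. At 0.3 on the log2 scale, 1 member was lower and 0 were higher, against 0.0909% and 0%, shares that include the members. The 1 member was YJL077W-B, whose difference was -0.58. The largest positive difference was 0.25, for YBR221W-A, a dim gene that stood at 3.753, 3.998 and 3.952 in the baseline, 1% and 10% arrays.

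In the 10% array the members spread further and more to the lower side. The median difference from the baseline array was again 0, but 73 members were lower, 33 equal and 42 higher, and the quartiles were -0.13 and 0.02. For the other S. cerevisiae probe sets the quartiles were -0.005 and 0.044, with 26.6% lower, 27.9% equal and 45.6% higher. Fewer members stayed within 0.1, 81 of 148 (54.7%), against 83.2% of the others. Exactly equal values in all 3 arrays were found for 26 members (17.6%) and for 26.2% of the others.

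At 2-fold, 1 member was lower and 1 higher in the 10% array than in the baseline array, where 0.0364% and 0.0182% of all S. cerevisiae probe sets were. At 0.3, 14 members (9.46%) were lower and 4 (2.70%) higher, against 1.55% and 0.2% of all S. cerevisiae probe sets. Without the Ty reading frames the counts were 12 and 4 of 137. Between the 10% and the 1% array, 1 member was at least 2-fold lower and 1 higher, against 0.0364% and 0.0182%. There, 9 members (6.08%) were lower by 0.3 or more and 4 (2.70%) higher, against 1.04% and 0.0728%. The 9 included YKL096C-B, at -0.41, and the 4 included YER138W-A, at 0.303, and otherwise held genes past 0.3 against the baseline array too. With arrays centred on the S. cerevisiae probe sets, 2 rather than 4 were higher. The comparisons with the 10% array share that array, so their counts are not independent. The shares of all S. cerevisiae probe sets include the members. Among the 5350 others, 7 were higher by 0.3 or more in 10% over baseline and 0 in 10% over 1%. All 10762 non-control probe sets also hold those outside the S. cerevisiae table. Of them, 1.43% were lower and 1.76% higher by 0.3 or more in 10% over baseline. In 10% over 1% it was 0.985% and 1.25%.

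Both members past 2-fold are very short. YJL077W-B, of 99 bases, stood at 9.23, 8.65 and 7.35 in the baseline, 1% and 10% arrays. It was lowest in the 10% array, where the difference from the baseline array was -1.88 or 3.68-fold, and the 1% array lay in between. Its neighbours PRY3 and ICS3, both on the opposite strand, differed by -0.011 and 0 in the same comparison. YJR151W-A, of 51 bases, went the other way and stood at 6.68, 6.87 and 7.96 in the baseline, 1% and 10% arrays, a difference of 1.28 or 2.43-fold between the 10% and the baseline array. Its flanking genes were DAN4, a cell wall mannoprotein gene, at 0.03, and DAL5, an allantoate permease gene, at -0.10. The 1% array lay near the baseline array for YJR151W-A, with a difference of 0.19.

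Next among the lower values were 3 genes at nearly the same difference. YMR158C-A, of 138 bases, stood at 8.17, 8.06 and 7.49 in the baseline, 1% and 10% arrays, a difference of -0.68 at 10%. YLR342W-A, of 174 bases, was at 9.80 in the baseline and the 1% array and at 9.12 in the 10% array. It lies between FKS1, the gene of a glucan synthase subunit, and GAS2, and both of these were equal in the baseline and the 10% array. The Ty4 frame YHL009W-B stood at 8.59, 8.46 and 7.90, a difference of -0.69. The shorter Ty4 frame YHL009W-A, whose 1242 bases all lie inside YHL009W-B, was dim, at 4.90, 4.93 and 4.39 with a difference of -0.51. Both Ty4 probe sets are marked as matching several transcripts, and their values may share RNA.

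Smaller negative differences belonged mostly to dim genes. YJL052C-A, of 120 bases, was at 6.68, 6.39 and 6.19 in the baseline, 1% and 10% arrays, and its flanking gene TDH1, a glycolytic enzyme gene, was equal in the baseline and 10% arrays. YGL041C-B, of 183 bases, was at 7.60, 7.60 and 7.13, and 62 of its bases overlap DPC13 on the opposite strand. YMR230W-A was at 6.09, 5.87 and 5.66 and YOR381W-A at 4.88, 4.67 and 4.45. YOR381W-A lies between FRE3 and FIT2, both genes of iron uptake, which differed by 0 and 0.004. YBL100W-C (-0.40), YOL038C-A (-0.40) and YBR072C-A (-0.37) had baseline values of 4.69, 7.25 and 4.82. All 7 genes were lowest in the 10% array. They were named for their falls from the baseline array, so only the order against the 1% array was not set by that choice.

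The mark of 0.3 did not separate a distinct set. Just past it on the lower side were YBR072C-A at -0.37, YGL258W-A at -0.34 and YLR363W-A at -0.31. Just short of it were YNR075C-A at -0.298, YKL183C-A at -0.29 and YMR105W-A at -0.28. On the higher side, YLR154C-H, YDR524W-C and YDL159W-A were past it at 0.34, 0.44 and 0.65, and YLR264C-A, YLL066W-B and YER078W-A short of it at 0.27, 0.26 and 0.26.

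Members higher in the 10% array were fewer. YDL159W-A, of 132 bases, stood at 4.79, 4.92 and 5.45 in the baseline, 1% and 10% arrays, a difference of 0.65. It lies between DHH1, an RNA helicase gene, and STE7, a kinase gene of the pheromone pathway, which differed by 0.17 and -0.01. YDR524W-C, of 90 bases, stood at 8.85, 8.99 and 9.30, next to the bright YDR524C-B on the opposite strand. YLR154C-H, of 132 bases, stood at 11.16, 11.29 and 11.51, and 105 of its bases overlap RDN5-2, a 5S ribosomal RNA gene, in the gene table. Its probe set is marked as matching several transcripts, so its value cannot be assigned to that frame. In each of these 3 genes the 1% array lay between the baseline and the 10% array.

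The next positive differences were under 0.3. YLR264C-A, of 117 bases, stood at 12.44, 12.54 and 12.70 and flanks RPS28B, a ribosomal protein gene, which differed by 0.075. YER078W-A was at 7.741, 7.76 and 8.002. Of the 3 probe sets of YLL066W-B, the one marked s was at 8.72, 8.81 and 8.98 and differed by 0.26, whereas the 2 others differed by -0.047 and 0. Differences of 0.16 to 0.25 were found for YHR007C-A (0.156), YCR024C-B (0.178), YER188C-A (0.190), YBR221W-A (0.199) and YER138W-A (0.247).

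**Figure D2:**
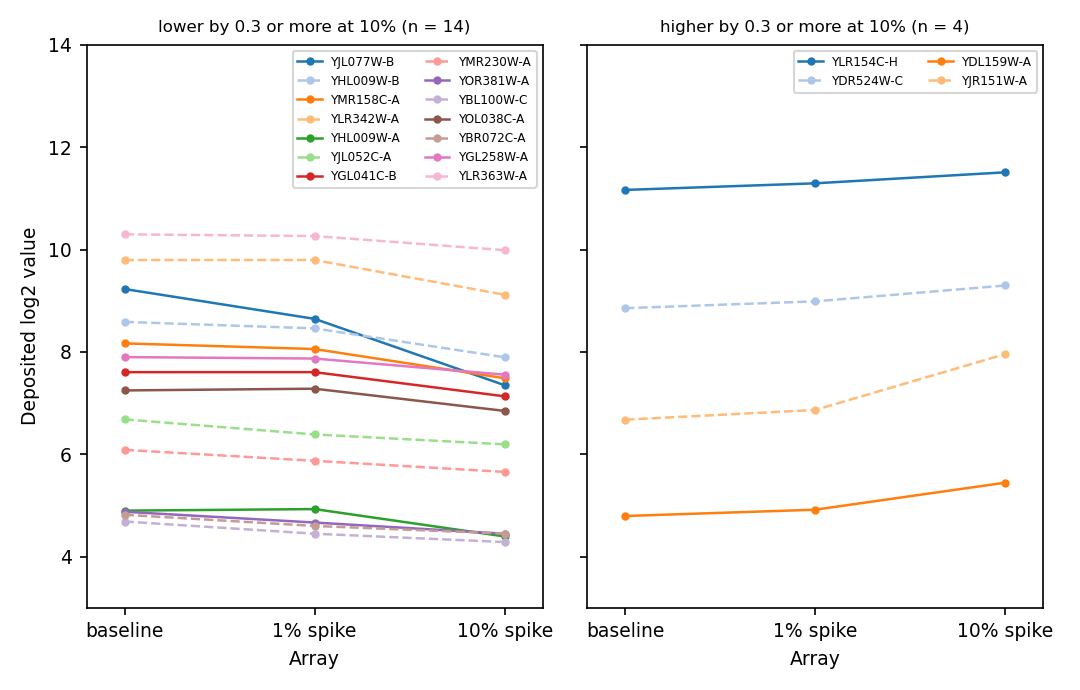
Deposited log2 values (vertical axis) in the baseline, 1% and 10% arrays (horizontal axis) of the 14 member probe sets lower by 0.3 or more (left) and the 4 higher by 0.3 or more (right) in the 10% array; each line is 1 probe set with 1 value an array. YJL077W-B has the steepest descent, to 7.35 in the 10% array, and YJR151W-A the steepest climb, to 7.96.

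Differences were then set against coding length. Spearman's rho of coding length with the 10% over baseline difference was 0.085 across the 148 member probe sets, which share the same arrays and are no replicates. Among the 127 under 300 bases it was -0.039. With the size of the difference, whatever its sign, rho was -0.11 over all members, -0.15 without Ty frames and -0.17 under 300 bases. In 1% over baseline the same 3 values were -0.17, -0.23 and -0.26, so shorter members tended to differ more in size, and weakly so. Across the other S. cerevisiae probe sets rho was -0.010 in 10% over baseline and -0.004 in 1% over baseline. Shorter members were also dimmer: rho of coding length with the baseline value was 0.34 over all members and 0.18 under 300 bases. The part of dimness in this trend was not tested. The share lower by 0.3 or more was 2 of 17 under 100 bases, 8 of 70 from 100 to under 200 bases, 2 of 40 from 200 to under 300 bases and 2 of 21 at 300 bases or more. The last 2 are the Ty4 frames. All 4 members higher by 0.3 or more were under 200 bases.

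Other short S. cerevisiae genes were set beside the members. Of 29 other probe sets from 100 to under 200 bases, 2 were lower by 0.3 or more, COX9, a cytochrome c oxidase subunit gene, at -0.40 and PMP2, the paralog of PMP1, at -0.31. From 200 to under 300 bases it was 4 of 85. From a list of small-protein genes with standard names, 56 of 59 genes were measured by 59 probe sets. Of these, 3 were lower by 0.3 or more and 0 higher, and 13 were for genes of 300 bases or more. The 3 were COX9 and PMP2 again and RPL41A, of 78 bases, at -1.87. The list's median difference was 0, as over all probe sets. The list's values centred on 12.84 in the baseline array, much brighter than the members. Suffixed genes with a standard name were lower by 0.3 or more in 4 of 110 probe sets (3.64%), led by HTL1 at -0.49 and HSK3 at -0.38, and higher in 0. PMP2 was among these 4 too, so the sets in this paragraph overlap.

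**Figure D3:**
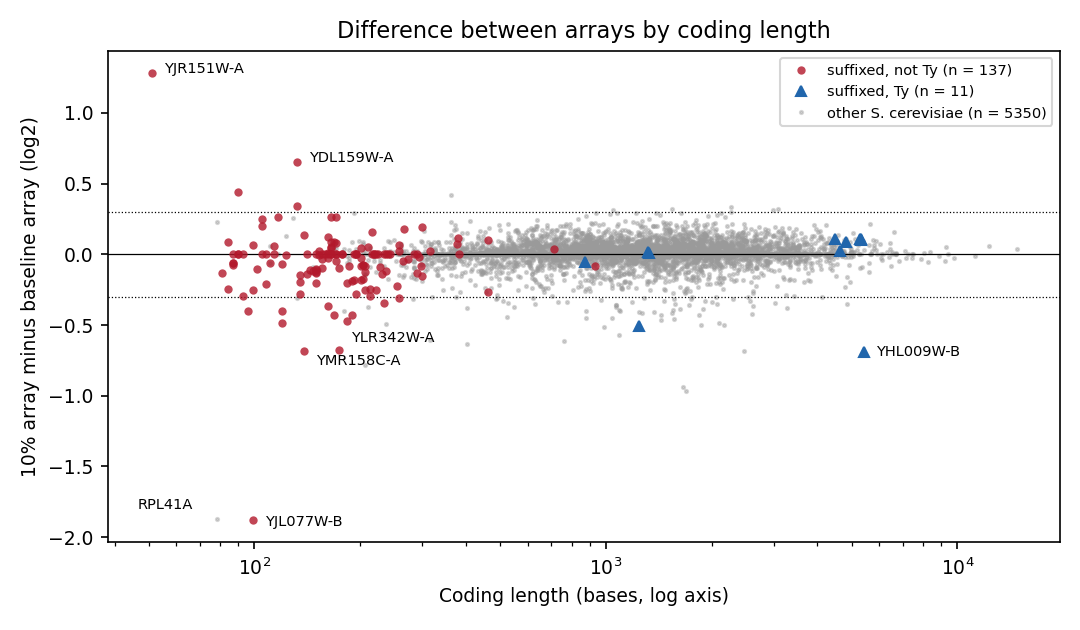
Difference of the 10% array from the baseline array (log2, vertical axis) against coding length (log axis) for 137 suffixed probe sets that are not of Ty elements (red circles), 11 of Ty elements (blue triangles) and 5350 other S. cerevisiae probe sets (grey); dotted lines mark 0.3 and -0.3. YJL077W-B lies near RPL41A at -1.88 and -1.87, YJR151W-A stands alone at 1.28, and most short members lie between the dotted lines.

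Dimness moved with the differences: across the members, Spearman's rho of the mean value over the 3 arrays with the 10% over baseline difference was 0.31, and 0.21 across the other S. cerevisiae probe sets. Without Ty frames it was 0.23 across the members, and across those under 300 bases 0.14. Members and others were therefore set side by side within ranges of that mean, and the part of dimness in the counts was not tested beyond this. Below a mean of 8, 10 of 91 members (10.99%) were lower by 0.3 or more, close to the share among other S. cerevisiae probe sets, 35 of 300 (11.7%). The median differences there were -0.063 for members and -0.052 for the others. At a mean of 8 or more, 4 of 57 members (7.02%) were lower, against 36 of 5050 others (0.713%). Those 4 were YJL077W-B, YHL009W-B, YLR342W-A and YLR363W-A. Levels were not matched within that range: 19 of 57 members but 330 of 5050 others lay at a mean of 8 to under 9. There 2 of the 19 (10.5%) and 16 of the 330 (4.85%) were lower. From 9 to under 10 it was 1 of 8 members (12.5%) and 13 of 874 others (1.49%). From 10 to under 11 it was 1 of 12 (8.33%) and 3 of 1366 (0.220%), and at a mean of 11 or more 0 of 18 and 4 of 2480 (0.161%). Because that mean holds the 10% array, a low value there can itself move a probe set below 8, as it did for YMR158C-A. Split by the 1% array alone, which is not in the difference, 9 of 90 members (10.0%) and 33 of 297 others (11.1%) under 8 were lower, and 5 of 58 members (8.62%) and 38 of 5053 others (0.752%) at 8 or more. Among genes under 300 bases at a mean of 8 or more, 3 of 40 members (7.5%) were lower, against 4 of 107 others (3.74%). Below 8 these short genes gave 9 of 87 members (10.3%) and 3 of 9 others (33.3%). On the higher side, 2 of 91 dim members passed 0.3, YDL159W-A and YJR151W-A, against 0 of 300 others, and 2 of 57 brighter members against 7 of 5050.

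**Figure D4:**
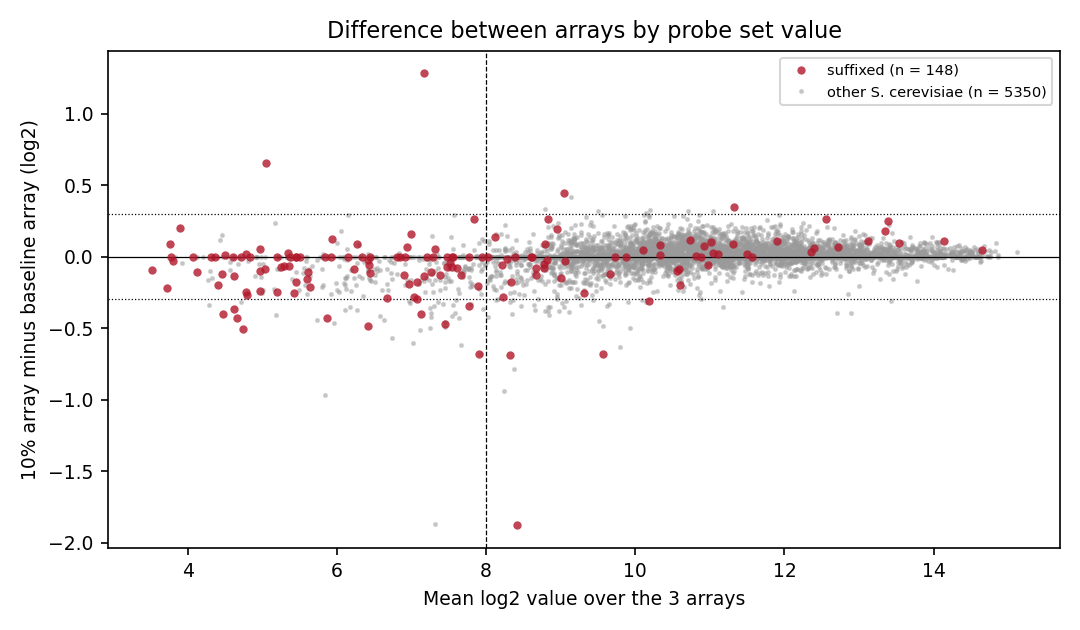
Difference of the 10% array from the baseline array (log2, vertical axis) against the mean log2 value over the 3 arrays (horizontal axis) for 148 suffixed (red) and 5350 other S. cerevisiae probe sets (grey); the dashed line marks a mean of 8, the dotted lines 0.3 and -0.3. Below 8 both sets reach under -0.3 at similar shares (10.99% and 11.7%), and above 8 the shares are 7.02% and 0.713%. Above 8 the sets are not matched in level, with 19 of 57 members and 330 of 5050 others at a mean of 8 to under 9.

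The brightest members were slightly higher in the 10% array. At a mean of 11 or more, 17 of 18 member probe sets were higher than in the baseline array, 1 was equal and 0 were lower, with a median difference of 0.094. Of the 2480 other S. cerevisiae probe sets in that range, 53.3% were higher and 20.7% lower, with a median of 0.004. The 18 were 7 of Ty elements, with a median difference of 0.098, and 11 others, with a median of 0.067. In those 11, YBL029C-A was equal in the 2 arrays and the highest difference was 0.34, for YLR154C-H. YLR154C-H was the 1 of the 18 past 0.3. The 18 are not separate observations. Of the 7 of Ty elements, all but YGR109W-B are marked as matching several transcripts, and YBL100W-A lies wholly inside YBL100W-B. YER138W-A and YLR154C-H are marked so too. Some RNA may thus be counted in more than 1 of the 18.

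Among Ty reading frames, the Ty4 pair stood apart from the 9 others, which lay between -0.056 and 0.111. The Ty4 pair was also the dimmest, at 8.59 and 4.90 in the baseline array, where the 9 others had 10.32 to 14.09. Family and dimness therefore cannot be told apart here. The 3 Ty1 probe sets differed by 0.009 for the Gag frame YBL005W-A, 0.090 for YDR261C-D and 0.11 for YDR316W-B. The 3 Ty2 probe sets differed by 0.018 for the Gag frame YBL100W-A, 0.098 for YDR261W-B and 0.11 for YBL100W-B. In both families the Gag-Pol frames had higher differences than the 1 Gag frame. That Gag frame was also dimmer in the baseline array, at 10.32 in Ty1 and 11.10 in Ty2, where the Gag-Pol frames had 11.28 to 14.09. In Ty4 the order was the reverse, with -0.69 for the Gag-Pol and -0.51 for the Gag frame. Ty3 gave -0.056 for YGR109W-A, 0.023 for YGR109W-B and 0.11 for YIL082W-A. Gag is the particle protein and Gag-Pol the fusion that also holds the enzymes. Of the 11 probe sets, YGR109W-B was the 1 not marked as matching several transcripts, so most of these values stand for a family rather than a locus.

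Measured flanking genes of the members past 0.3 stayed within 0.3 themselves, as did most S. cerevisiae probe sets. The 12 members lower by 0.3 or more that are not of Ty elements had 24 measured flanking genes, of which 0 were lower by 0.3 or more. Over all S. cerevisiae probe sets the share was 1.55%, so 0 of 24 does not set these flanking genes apart. Those flanking genes had a median difference of 0 and a range from -0.235 to 0.155, with the lowest, ATG16, beside YMR158C-A. They included YBL100W-B, beside YBL100W-C, at 0.11. YBL100W-B is itself a member and a Ty2 frame, and its probe set is marked as matching several transcripts. The 4 members higher by 0.3 or more had 7 measured flanking genes with differences from -0.102 to 0.165. For 125 members that are not of Ty elements and have a measured neighbour, the 226 flanking values had a median of 0. Of these, 1 was lower by 0.3 or more, YKU80 beside YMR105W-A at -0.38, and 2 were higher, STB3 beside YDR169C-A at 0.32 and the member YDR524W-C beside YDR524C-B at 0.44. The flanking genes were also brighter, with a median baseline value of 10.85, against 7.19 for the members that are not of Ty elements.

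**Figure D5:**
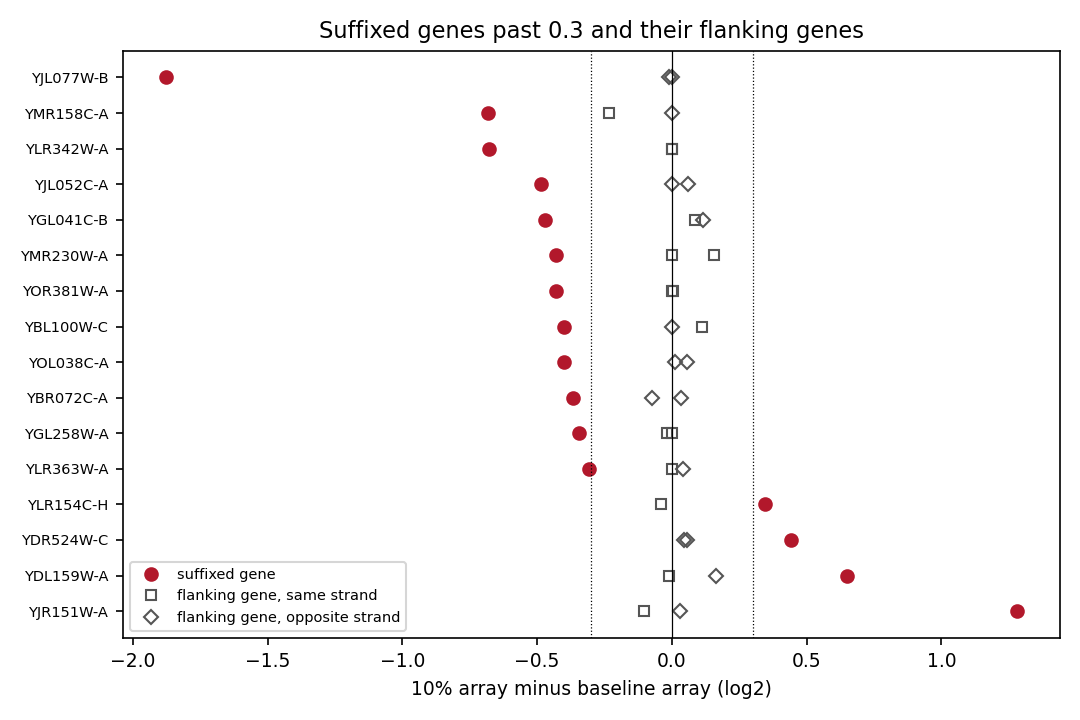
Difference of the 10% array from the baseline array (log2, horizontal axis) for the 16 suffixed genes that are not of Ty elements and differ by 0.3 or more (red) and for their measured flanking genes on the same (squares) or the opposite strand (diamonds). All 31 flanking values lie between the dotted lines at -0.3 and 0.3, and of all S. cerevisiae probe sets only 1.55% were lower and 0.2% higher by 0.3 or more.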

How the data were processed

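Total RNA was measured on 3 arrays, 1 for each group. The authors deposited log2 expression values, 1 for each probe set and array, made with RMA (robust multi-array average) per the submitters' processing notes. RMA corrects background, equalizes the arrays' distributions and summarizes probes by median polish, so a shift common to most RNA cannot show and exact ties occur. No label states the log base, and it was taken from RMA's usual output and the range of 3.47 to 15.13. For the RMA version and the genome build, nothing is given in the sources used here.

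Of 10928 probe sets, 166 controls (AFFX) were left out. Symbols came from the platform annotation, which gave 1 symbol to 7244 probe sets, several to 1 and none to 3683. All 148 members matched the S. cerevisiae R64 table, an S288C assembly, by gene identifier, and 0 symbols changed. Differences between W303 and S288C were not examined. Length is the annotated span with any intron, which was a multiple of 3 for every member under 300 bases. A spliced small-protein gene such as RPL39, at 542 bases, therefore falls outside the short ranges of coding length. Flanking and overlapping genes are by that table, and Ty families by common knowledge of the annotation. Differences of log2 values were rounded to 3 decimals and counted at 2-fold and 0.3, and the counting was tested on simulated data. No test between arrays was run.

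Named members were those past 2-fold, the 12 largest differences in each direction at 10% over baseline, the 5 brightest, dimmest, shortest and longest, and the 3 on each side of 0.3. Others are named where they make up a small count, flank a named gene, or have several probe sets, or are of Ty elements; these were chosen after their values were seen. The members, lists and marks were chosen with earlier results of these data known, and the comparison with suffixed genes that have a standard name was added later. Alternatives were another normalization, a filter on dim probe sets, leaving out shared probe sets or long members, and a 1.5-fold mark. Python 3.11.15, pandas 2.3.3, scipy 1.17.1 and statsmodels 0.14.6 were used.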

Additional observations from a re-analysis of the deposited data

How the results depend on the processing

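Of 142 values recomputed for 26 results, 132 stayed within 1.5 times the count, or within a fixed tolerance for medians and correlations. The sign had to be kept for correlations only. Another 6 counts moved. Under the 1.5-fold mark, 4 members were lower and 2 higher in 10% over baseline, and 2 lower in 10% over 1%. In 1% over baseline, 2 members were lower by 0.3 or more after quantile normalization over again, and 2 with arrays centred on the S. cerevisiae probe sets, where 1 was as deposited. Centring left 2 members higher by 0.3 or more in 10% over 1%, against 4. The correlation of coding length with the difference changed sign without members of 300 bases or more, to -0.0393 in 1% over baseline, -0.0393 in 10% over baseline and -0.029 in 10% over 1%, and to -0.0293 in 1% over baseline without shared probe sets; the cause was not tested, and all these values are near 0. YJL077W-B ran from -1.905 to -1.854 and YJR151W-A from 1.255 to 1.30 in 10% over baseline under the 3 other scalings. All 14 lower and 4 higher members at 0.3 were called in that comparison under each of those scalings, with 14 to 18 lower in all. Splitting members by their value in the 1% or the baseline array alone, chosen after seeing the data, gave 9 lower members under 8 and 5 at 8 or more, against 10 and 4 by the mean. The members' median difference in 10% over baseline was 0 as deposited. It was -0.024 after quantile normalization over again, -0.026 with arrays centred and -0.024 without members of 300 bases or more. These lay within the tolerance of 0.0565, so the median of 0 holds only to within that tolerance. The median of all non-control probe sets was -0.014 after quantile normalization over again and -0.026 with arrays centred. Centring thus moved the members' median no further than that of all probe sets. No paired analysis was possible because each group is 1 array. The scanner files were not used here, so signal over background could not be judged for the dim members.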
